A study of Mus musculus with 4 samples.

Results

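Interferon-stimulated genes (ISGs) are the genes that cells switch on when they sense an interferon, and 44 of them were followed here in the subcutaneous adipose tissue (SAT) of mice. They were taken by name from a list drawn up with earlier results of these data known, and 39 of the 44 were measured among 19938 named genes. The groups were cKO-HFD, WT-HFD, cKO-CT and WT-CT, each measured on 1 array. All mice were 16 weeks old, of the C57Bl6 strain, and carried the NAPE PLD lox/lox allele, so the WT mice were floxed littermates. The cKO mice also carried AP2 Cre, that is *Cre* under the *Fabp4* promoter, which is active in adipocytes. It is known to act in some macrophages and endothelial cells too. In these mice the paper found lower *Napepld* expression in the adipocyte fraction of fat, but not in the stromal vascular fraction or in peritoneal macrophages. Other cells of the tissue can therefore keep *Napepld*. The CT groups ate the control diet AIN93M and the HFD groups the high fat diet D12492. Each array held RNA pooled from 4 to 5 mice according to the labels (the methods give the upper number for each group), which makes the array the only sample of its group. The spread between mice is therefore not seen, and no difference below has a replicate check or a test. The question of the series was what *Napepld* deletion in fat does to gene expression on either diet.

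Interferons are cytokines released on infection or tissue stress. Type I interferons bind the receptor of IFNAR1 and IFNAR2, whose kinases JAK1 and TYK2 phosphorylate STAT2, and STAT2 joins IRF9 in a complex that binds interferon-stimulated response elements (ISREs) in promoters. Interferon gamma acts through its own receptor and the kinases JAK1 and JAK2, and its signal is read at gamma activated sites (GAS). The products of ISGs detect viral RNA and DNA, block viral replication, process antigens and feed back on the signal itself, and in fat they can be made by adipocytes, endothelial cells and immune cells.

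Letters that match these elements could be found in the promoters of many members. RefSeq promoter windows (build GRCm38.p6, 250 bases before to 50 after a transcription start) were found for 33 of the 44 members. They were searched on both strands for the ISRE core, GAAA followed after any 2 bases by a further GAAA, and for the GAS core TTCNNNGAA. The ISRE core was found for 16 of 33 members (48.5%), against 3.99% of the 27025 genes with a window. The GAS core was found for 11 of 33 (33.3%), against 9.55%. Counted by window, 17 of 40 windows of the members (42.5%) and 3.44% of all windows held the ISRE core, and 11 of 40 (27.5%) and 8.30% the GAS core. The cores overlapped in 1 window of the members. By role, the ISRE core was found for 5 of 5 interferon-inducible GTPase genes with a window and for 0 of 3 antigen processing genes. A match is a description of letters and not a site shown to be bound. Shown here are windows of the 6 members with a match and the largest differences between arrays, with ISRE cores in capitals. *Ifit3* and *Ifit1*, which lie close together on chromosome 19, carry the same pair of core sequences, and the cores of *Irgm1* overlap each other. A core on the opposite strand reads as TTTC, 2 bases and TTTC here.
*Oas3* (chr5:120777610-120777909, minus strand): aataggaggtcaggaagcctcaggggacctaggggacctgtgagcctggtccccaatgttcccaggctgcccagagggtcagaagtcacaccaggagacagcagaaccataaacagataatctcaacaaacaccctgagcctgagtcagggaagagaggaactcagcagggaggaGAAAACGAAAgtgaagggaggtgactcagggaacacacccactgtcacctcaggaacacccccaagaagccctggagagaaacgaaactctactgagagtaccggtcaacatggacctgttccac
*Ifit3* (chr19:34583279-34583578, plus strand): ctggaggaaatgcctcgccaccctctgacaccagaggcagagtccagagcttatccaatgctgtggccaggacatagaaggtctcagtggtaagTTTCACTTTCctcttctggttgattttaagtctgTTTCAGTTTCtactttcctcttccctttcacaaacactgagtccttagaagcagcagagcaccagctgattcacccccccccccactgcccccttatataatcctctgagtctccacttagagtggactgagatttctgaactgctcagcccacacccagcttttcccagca
*Rsad2* (chr12:26456403-26456702, minus strand): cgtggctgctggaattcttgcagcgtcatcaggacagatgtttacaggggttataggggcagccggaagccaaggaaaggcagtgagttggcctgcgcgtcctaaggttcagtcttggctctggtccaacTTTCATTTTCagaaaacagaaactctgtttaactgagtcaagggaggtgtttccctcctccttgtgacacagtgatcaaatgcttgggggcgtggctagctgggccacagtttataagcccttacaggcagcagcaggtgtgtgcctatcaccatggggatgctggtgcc
*Trim30a* (chr7:104465144-104465443, minus strand): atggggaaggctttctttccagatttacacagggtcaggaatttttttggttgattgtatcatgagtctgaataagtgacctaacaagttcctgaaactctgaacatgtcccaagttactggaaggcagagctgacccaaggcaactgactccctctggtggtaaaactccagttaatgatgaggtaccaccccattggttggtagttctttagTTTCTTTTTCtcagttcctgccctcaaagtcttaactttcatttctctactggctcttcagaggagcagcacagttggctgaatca
*Ifit1* (chr19:34640639-34640938, plus strand): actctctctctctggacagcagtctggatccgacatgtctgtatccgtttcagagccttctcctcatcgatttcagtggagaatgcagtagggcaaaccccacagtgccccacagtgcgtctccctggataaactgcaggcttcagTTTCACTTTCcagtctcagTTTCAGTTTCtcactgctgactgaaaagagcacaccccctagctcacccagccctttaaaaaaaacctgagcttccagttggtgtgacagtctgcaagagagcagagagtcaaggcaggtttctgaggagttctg
*Irgm1* (chr11:48871371-48871670, minus strand): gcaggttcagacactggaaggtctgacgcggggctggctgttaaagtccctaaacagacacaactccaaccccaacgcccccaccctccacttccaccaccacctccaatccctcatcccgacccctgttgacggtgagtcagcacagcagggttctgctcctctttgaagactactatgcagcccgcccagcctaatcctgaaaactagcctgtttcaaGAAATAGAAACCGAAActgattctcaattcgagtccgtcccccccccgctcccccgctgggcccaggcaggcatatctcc
For *Trim30a*, which has more than 1 window, the first is shown.

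Expression is given as the log2 level from the authors' RMA values, and the level of a gene is the mean of the probe sets that name only that gene. A ratio of 1.5-fold or more between 2 arrays, the size the study used for its gene lists, was called higher or lower. Olfactory receptor (*Olfr*) genes, which fat is not known to use, served as a background: a gene was taken as above it where its level passed the 95th percentile of the 1027 *Olfr* genes, which was 5.50 on cKO-HFD, 5.42 on WT-HFD, 5.28 on cKO-CT and 5.39 on WT-CT. Across genes, the 4 arrays had pairwise correlations of 0.980 to 0.989. *Napepld* had a log2 level of 7.94 on cKO-HFD, 8.01 on WT-HFD, 7.78 on cKO-CT and 8.31 on WT-CT, within 1.5-fold in each comparison, though its ratio in cKO-CT over WT-CT was -0.53 as deposited and -0.62 after cyclic loess, past that size. Where its probe set lies relative to the deleted part is not given in the sources used here. The paper reported lower *Napepld* mRNA by qPCR in the fat of cKO mice on both diets, with some residual expression. It found no detectable NAPE-PLD protein in cKO white fat. All 11 measured adipocyte markers were above the background on every array, with *Adipoq* at 12.70 on cKO-HFD, 12.59 on WT-HFD, 12.66 on cKO-CT and 12.44 on WT-CT. Skeletal muscle and pancreatic genes were present too and differed between arrays. The mean log2 level of 15 muscle markers was 7.45 on cKO-HFD, 11.14 on WT-HFD, 9.51 on cKO-CT and 9.61 on WT-CT, and that of 13 acinar markers 5.23 on cKO-HFD, 5.30 on WT-HFD, 5.08 on cKO-CT and 6.79 on WT-CT. Among them, *Mybpc2*, *Pygm* and *Myh4* had log2 ratios of -4.52, -4.50 and -4.46 in cKO-HFD over WT-HFD, and *Cpa1*, *Ctrb1* and *Rnase1* -3.40, -3.23 and -2.48 in cKO-CT over WT-CT. With 1 array per group, foreign tissue and condition cannot be told apart, and the part of such tissue in the values below was not tested.

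The ISGs were expressed at modest levels and differed little between the arrays. Of the 39 measured members, 34 were above the *Olfr* background on all 4 arrays and 36 on at least 1, while *Oas3*, *Mx1* and *Mx2* stayed under it on each of the 4. The lowest and highest array of a member differed by 0.14 to 0.82 on the log2 scale, with a median of 0.36. For 33 of 39 members this was less than 1.5-fold. The mean log2 level of the members was 6.59 on cKO-HFD, 6.71 on WT-HFD, 6.84 on cKO-CT and 6.63 on WT-CT. The cKO-CT array was the highest of the 4 for 24 members (61.5%), against 22.7% of all named genes and 29.0% of the genes above the background. The share was 34.3% among genes whose mean log2 level reached 7, called bright genes below. The cKO-HFD array was the lowest for 16 members (41.0%, against 22.9% of all genes, 26.9% of those above the background and 27.9% of the bright genes). The WT-CT array was the lowest for 15 (38.5%), against 28.3%, 33.2% and 41.9%, so that share was near the background, and 13 members were highest on cKO-CT and lowest on cKO-HFD. After cyclic loess between the arrays, cKO-CT was highest for 22 members, against 24.2% of the genes above the background. When each array was centred on the bright genes, a choice made after seeing the data, it was highest for 16 members, against 11.8%.

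**Figure D1:**
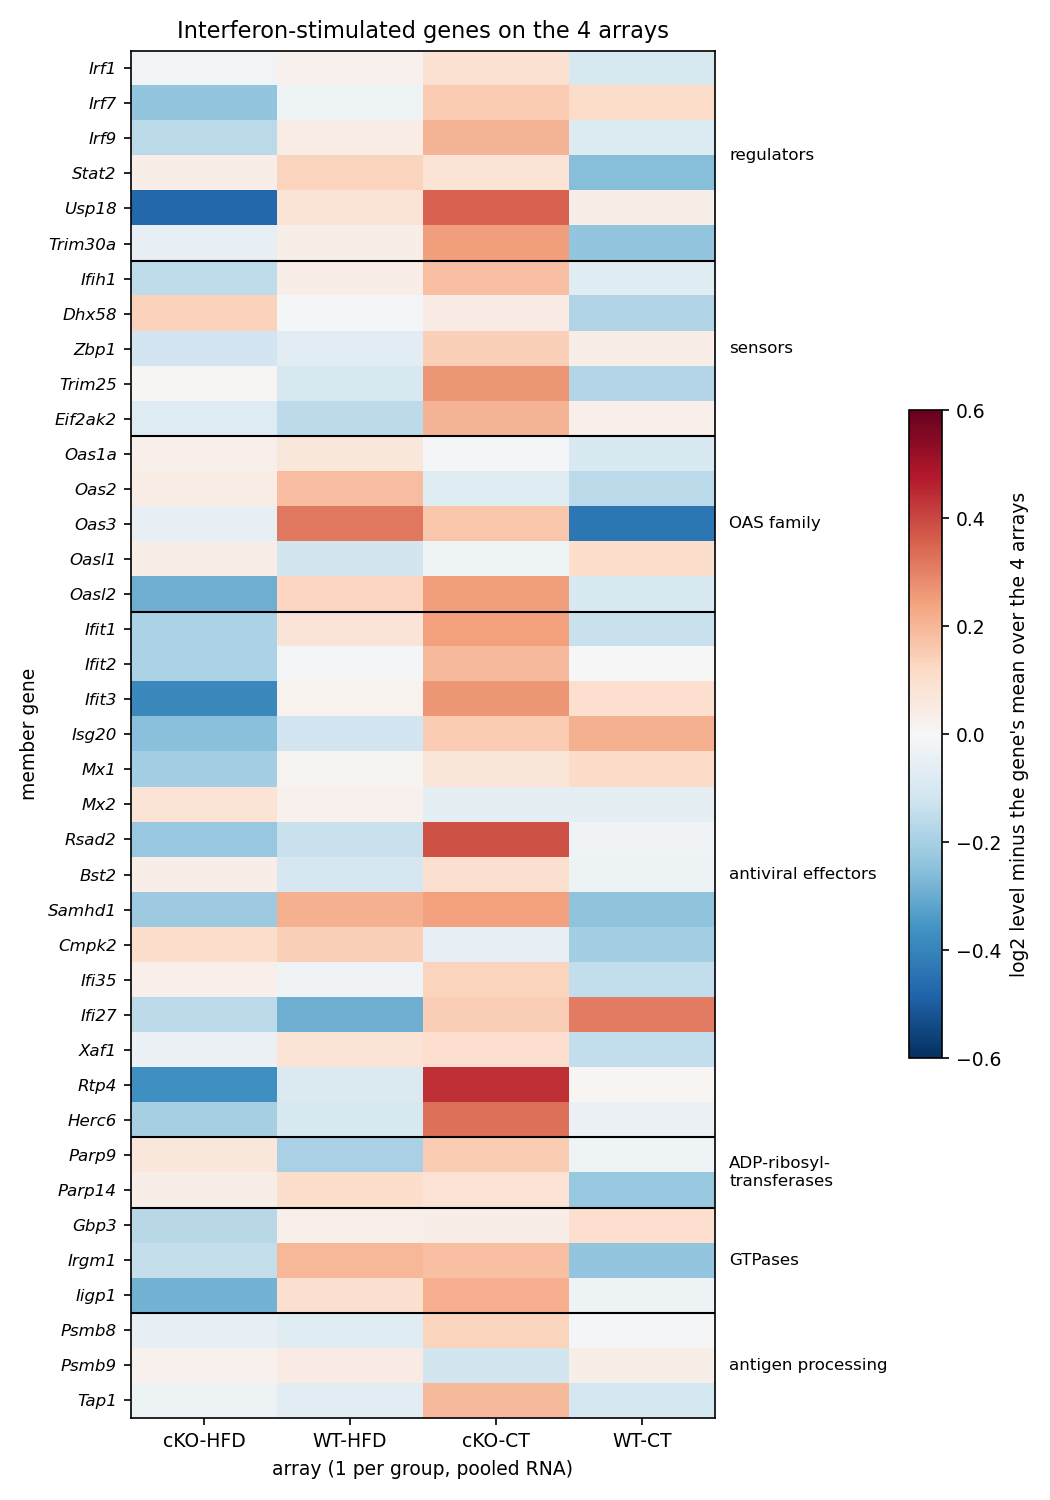
Log2 level of the 39 measured members (rows, grouped by role) on the cKO-HFD, WT-HFD, cKO-CT and WT-CT arrays (columns), shown as the difference from the gene's own mean over the 4 arrays. The cKO-CT column is the highest for 24 of the 39 genes, and the strongest low values are those of *Usp18* and *Ifit3* on cKO-HFD and *Oas3* on WT-CT.

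On the control diet, most ISGs had slightly higher values on the cKO array. In cKO-CT over WT-CT, 32 of 39 members (82.1%) had a log2 ratio above 0, against 49.2% of all named genes. The median was 0.23 with quartiles of 0.095 and 0.34, against -0.0050 over all genes. Only *Oas3* was called higher, at 1 of 39 members (2.56%) beside 1.64% of all genes, and it lay under the background on both arrays, so its ratio is not resolved. No member was called lower, beside 1.52%. Part of this lean was shared by bright genes in general. Of the 15 bright members, 11 (73.3%) had a ratio above 0, close to the 69.6% of the 5362 genes that bright, and their median was 0.28, against 0.11 for those genes. Over the genes above the background the share was 57.9% and the median 0.049. Centring on the bright genes moved the median of all genes by -0.13 here and by 0.10 in cKO-HFD over cKO-CT. It left 27 of 39 members above 0 (69.2%), against 36.2% of the genes above the background, and a median of 0.094, and it ended the call of *Oas3* (0.47).

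The diet ratios of the members had medians of opposite sign in the 2 genotypes, but the lean in WT was near that of the bright genes. In WT-HFD over WT-CT, 23 of 39 members (59.0%) had ratios above 0. The share was 49.2% of all genes, 52.0% of those above the background and 55.7% of the bright genes. The median was 0.079, against 0.035 over the bright genes. Centred on the bright genes, 20 of 39 members (51.3%) were above 0, against 43.9% of the genes above the background, with a median of 0.031. *Oas3* was called higher, beside 3.16% of all genes, and *Ifi27* lower, beside 2.67%. In cKO-HFD over cKO-CT, 32 of 39 members (82.1%) had ratios below 0, against 46.9% of all genes, 57.0% of those above the background and 65.2% of the bright genes. The median was -0.26, against 0.017 over all genes. *Usp18*, *Rtp4*, *Ifit3* and *Rsad2* were called lower, at 4 of 39 (10.3%) beside 2.17% of all genes, and no member was called higher, beside 1.82%. Of the 15 bright members, 14 (93.3%) had ratios below 0. Centred on the bright genes, 27 of 39 (69.2%) were below 0, against 39.9% of the genes above the background, the median was -0.15 and 2 members stayed past 1.5-fold, as *Ifit3* (-0.55) and *Rsad2* (-0.51) no longer did. A ratio above 0 in WT and below 0 in cKO was found for 17 of 39 members (43.6%), against 22.0% of all genes, 27.4% of those above the background and 30.7% of the bright genes. After centring it was 12 of 39 (30.8%), against 15.5% of the genes above the background. The cKO comparison shares the cKO-CT array with the genotype comparison on the control diet, so a high cKO-CT array enters both.

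**Figure D2:**
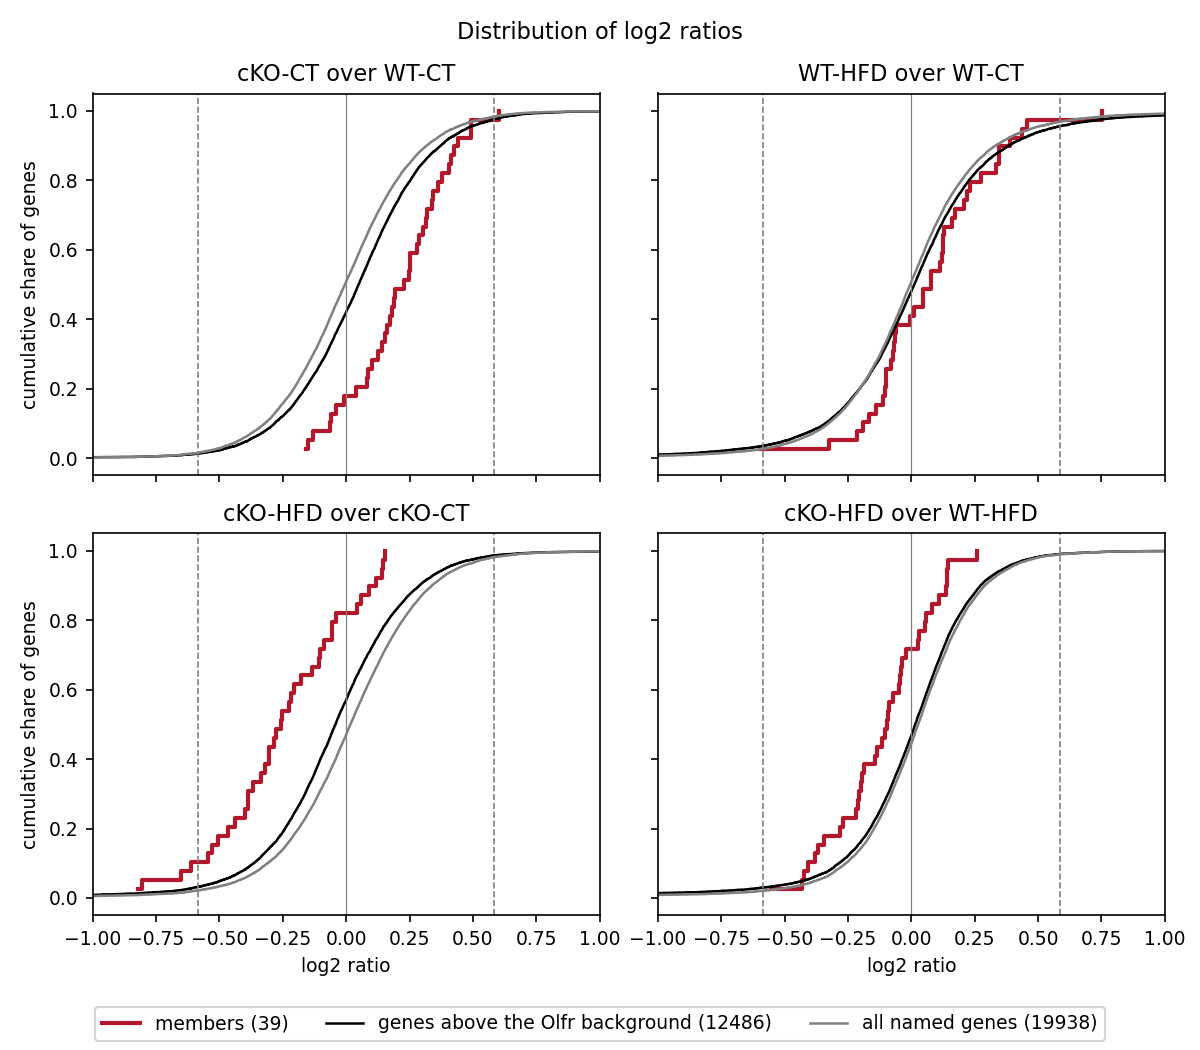
Cumulative share of genes (vertical axis) against the log2 ratio (horizontal axis, drawn from -1 to 1) for the 39 members (red), the genes above the *Olfr* background (black) and all named genes (grey) in the 4 comparisons, with 1.5-fold dashed. The red curve lies to the right of both others over most of its length in cKO-CT over WT-CT, where its median is 0.23, and to the left in cKO-HFD over cKO-CT, where it is -0.26.

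On the high fat diet most members had slightly lower values on the cKO array. In cKO-HFD over WT-HFD, 28 of 39 members (71.8%) had ratios below 0, against 44.4% of all genes, 46.6% of those above the background and 45.7% of the bright genes. The median was -0.097, against 0.027 over all genes. None passed 1.5-fold, beside 1.04% of all genes higher and 2.11% lower, and *Usp18* came nearest (-0.55). The genotype comparisons on the 2 diets use different arrays. Gene by gene, 24 of 39 members (61.5%) had a ratio below 0 on HFD and above 0 on CT, against 22.9% of all genes, 27.7% of those above the background and 30.8% of the bright genes. After loess it was again 24 (against 26.3% of the genes above the background), and after centring on the bright genes 20 (51.3%, against 15.8%). The HFD ratio minus the CT ratio was below 0 for 33 of 39 members (84.6%), against 47.1% of all genes, 56.1% of those above the background and 64.8% of the bright genes, with a median of -0.27 (-0.12 when centred on the bright genes). It was lowest for *Oas3* (-0.97, under the background on all 4 arrays and so not resolved), *Samhd1* (-0.92) and *Usp18* (-0.87). It was highest for *Ifi27* (0.30) and *Oasl1* (0.28). This difference of ratios was not tested, since 1 array per group leaves no error to set it against.

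**Figure D3:**
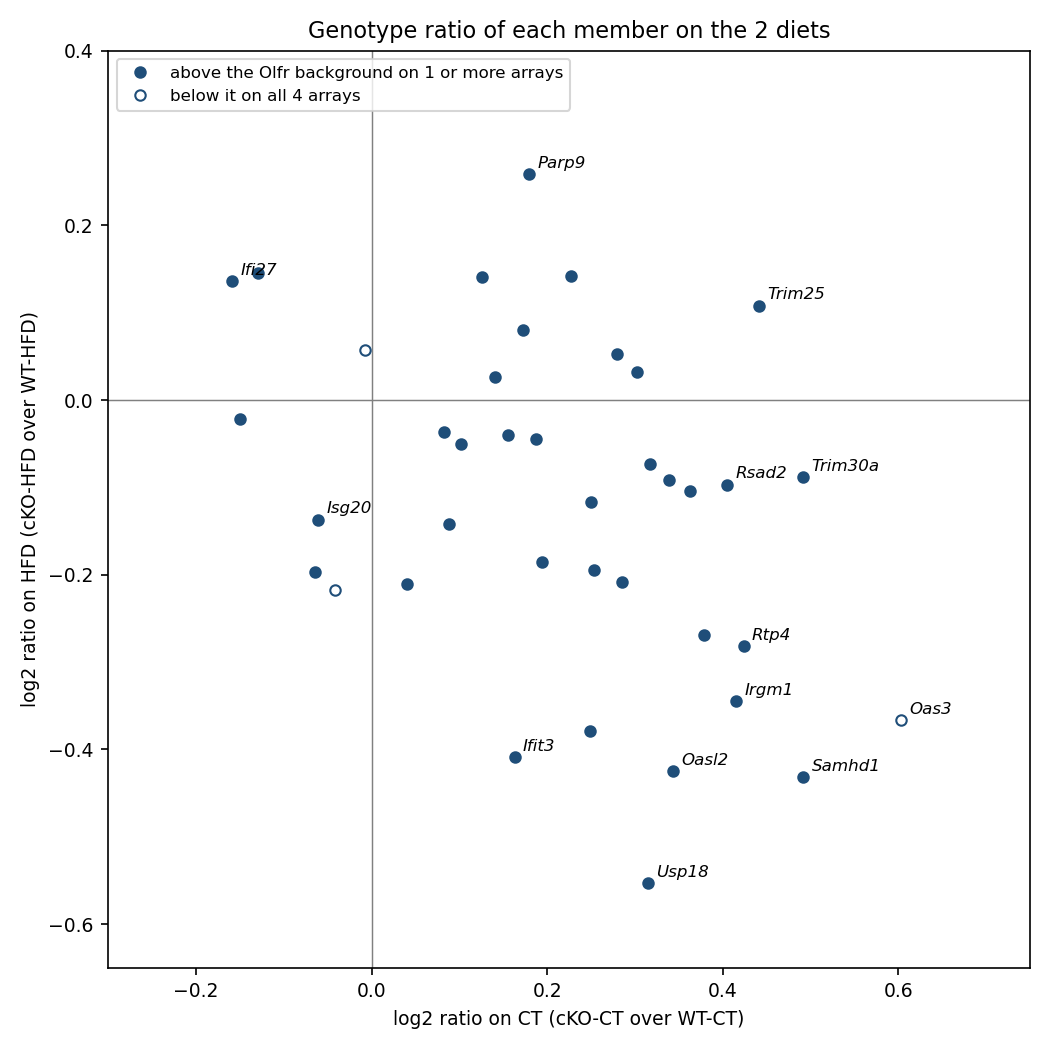
Log2 ratio on HFD (cKO-HFD over WT-HFD, vertical axis) against that on CT (cKO-CT over WT-CT, horizontal axis) for the 39 members, 1 point per gene, with open points for genes under the *Olfr* background on all 4 arrays. The lower right field, above 0 on CT and below 0 on HFD, holds 24 of the 39 points.

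The 6 regulators among the members leaned as the whole set did. All 6 had ratios above 0 in cKO-CT over WT-CT, against 49.2% of all genes and 69.6% of the bright genes. After loess or centring on the bright genes 5 of 6 did. In cKO-HFD over WT-HFD all 6 were below 0 under each scaling, against 44.4% and 45.7% as deposited. A separate list of 8 negative regulators, given below, had 4 genes above and 4 below 0 in both genotype comparisons. The medians were 0.30 for cKO over WT on CT, -0.15 for cKO over WT on HFD, 0.13 for HFD over CT in WT and -0.34 for HFD over CT in cKO. *Usp18* encodes a protease that removes ISG15 from proteins and also binds IFNAR2 to damp the signal. Its log2 level was 6.41 on cKO-HFD, 6.96 on WT-HFD, 7.23 on cKO-CT and 6.91 on WT-CT, so it stood highest on cKO-CT and lowest on cKO-HFD. This is 1.77-fold lower on cKO-HFD than on cKO-CT, a log2 ratio of -0.82 that was the largest of any member in either direction, and it stayed past 1.5-fold under each scaling tried. *Irf9*, the DNA-binding part of the complex that reads ISREs, had 7.05 on cKO-HFD, 7.26 on WT-HFD, 7.42 on cKO-CT and 7.13 on WT-CT. Its partner *Stat2* had 7.02 on cKO-HFD, 7.11 on WT-HFD, 7.06 on cKO-CT and 6.72 on WT-CT, with WT-CT lower than the other 3 arrays. *Irf7*, which amplifies type I interferon production, had 6.51 on cKO-HFD, 6.72 on WT-HFD, 6.90 on cKO-CT and 6.85 on WT-CT, with cKO-HFD lowest. *Irf1*, a factor induced above all by interferon gamma, had 6.69 on cKO-HFD, 6.74 on WT-HFD, 6.80 on cKO-CT and 6.61 on WT-CT as the mean of a pair of probe sets. These gave 0.30 and 0.075 for cKO-CT over WT-CT, so the ratio rests mainly on the first. *Trim30a*, which restrains NF-kappaB signalling in the mouse, had 7.54 on cKO-HFD, 7.63 on WT-HFD, 7.84 on cKO-CT and 7.35 on WT-CT, highest on cKO-CT. Apart from *Usp18*, none of these 6 regulators passed 1.5-fold in any comparison.

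The group of sensors of viral nucleic acid, with which *Trim25* was listed, differed less. *Ifih1* encodes MDA5, which senses long double-stranded RNA, and had a log2 level of 6.68 on cKO-HFD, 6.87 on WT-HFD, 7.01 on cKO-CT and 6.76 on WT-CT. *Dhx58* (LGP2), a helicase that modulates MDA5, had 5.70 on cKO-HFD, 5.56 on WT-HFD, 5.61 on cKO-CT and 5.38 on WT-CT, with WT-CT under the background. *Zbp1*, a sensor of Z-form nucleic acid that can start cell death, had 6.39 on cKO-HFD, 6.44 on WT-HFD, 6.65 on cKO-CT and 6.55 on WT-CT. All 5 genes of the group varied by less than 1.5-fold. *Trim25*, a ubiquitin ligase of the RIG-I pathway, had 7.30 on cKO-HFD, 7.19 on WT-HFD, 7.55 on cKO-CT and 7.11 on WT-CT, and cKO-CT again stood highest. *Eif2ak2* (PKR), a kinase that stops translation when it binds double-stranded RNA, had 6.25 on cKO-HFD, 6.17 on WT-HFD, 6.54 on cKO-CT and 6.37 on WT-CT. Each of the 5 genes had a ratio above 0 in cKO-CT over WT-CT (4 of 5 when centred on the bright genes), with a median of 0.23. In cKO-HFD over WT-HFD their median was 0.080.

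The OAS genes encode enzymes that make 2′-5′ oligoadenylates, which activate RNase L, and relatives without that activity. *Oas3* had a log2 level of 4.83 on cKO-HFD, 5.20 on WT-HFD, 5.05 on cKO-CT and 4.45 on WT-CT. Its ratios of 0.60 in cKO-CT and 0.75 in WT-HFD over WT-CT passed 1.5-fold, but it was under the background on every array and these sizes are not resolved. *Oasl2* was brighter, with 7.14 on cKO-HFD, 7.57 on WT-HFD, 7.69 on cKO-CT and 7.35 on WT-CT, and its ratio of -0.55 in cKO-HFD over cKO-CT was just short of 1.5-fold. *Oas2* had 6.85 on cKO-HFD, 6.99 on WT-HFD, 6.73 on cKO-CT and 6.65 on WT-CT, and both HFD arrays were above both CT arrays. *Oas1a* had 5.87 on cKO-HFD, 5.91 on WT-HFD, 5.83 on cKO-CT and 5.75 on WT-CT, a spread of 0.16. A further probe set that names *Oas1a* together with its near copy *Oas1g* had 5.72 on cKO-HFD, 6.0 on WT-HFD, 5.87 on cKO-CT and 5.43 on WT-CT. The pair of probe sets put WT-HFD highest and WT-CT lowest alike. *Oasl1*, which in the mouse limits *Irf7* translation, had 6.79 on cKO-HFD, 6.64 on WT-HFD, 6.73 on cKO-CT and 6.86 on WT-CT and was 1 of the 7 members with a ratio below 0 in cKO-CT over WT-CT.

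Among the 15 measured antiviral effectors, 13 had ratios below 0 in cKO-HFD over cKO-CT. The share was 46.9% of all genes, 57.0% of those above the background and 65.2% of the bright genes. Lower by at least 1.5-fold were 3 of the 15, beside 2.17% of all genes. *Rtp4*, an interferon-induced chaperone of receptors, had a log2 level of 6.22 on cKO-HFD, 6.50 on WT-HFD, 7.02 on cKO-CT and 6.60 on WT-CT, which is 1.75-fold lower on cKO-HFD than on cKO-CT. *Ifit3*, whose human protein binds IFIT1 and steadies its hold on viral RNA, had 7.16 on cKO-HFD, 7.57 on WT-HFD, 7.81 on cKO-CT and 7.65 on WT-CT, 1.57-fold lower. *Rsad2* (viperin), which makes a chain-terminating nucleotide, had 5.95 on cKO-HFD, 6.04 on WT-HFD, 6.56 on cKO-CT and 6.15 on WT-CT, 1.53-fold lower. Centred on the bright genes, *Ifit3* and *Rsad2* no longer passed 1.5-fold. In *Rtp4*, *Ifit3* and *Rsad2* the cKO-CT array was the highest and cKO-HFD the lowest, and the WT arrays lay between. *Cmpk2*, the neighbour of *Rsad2* and a supplier of its nucleotide substrate, did not share this pattern, with 6.21 on cKO-HFD, 6.25 on WT-HFD, 6.06 on cKO-CT and 5.91 on WT-CT.

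*Ifit1* had 5.83 on cKO-HFD, 6.09 on WT-HFD, 6.26 on cKO-CT and 5.88 on WT-CT and *Ifit2* had 5.51 on cKO-HFD, 5.70 on WT-HFD, 5.90 on cKO-CT and 5.70 on WT-CT. Both followed *Ifit3* in order of cKO-CT and cKO-HFD without passing 1.5-fold. The *Ifit* genes have near copies in the mouse, and how far the probes tell them apart was not tested. *Herc6*, the main ligase that attaches ISG15 to proteins in the mouse, had 6.41 on cKO-HFD, 6.52 on WT-HFD, 6.94 on cKO-CT and 6.58 on WT-CT. *Samhd1*, which depletes the nucleotides that reverse transcription needs, had 8.47 on cKO-HFD, 8.90 on WT-HFD, 8.94 on cKO-CT and 8.44 on WT-CT. For *Samhd1*, cKO-CT and WT-HFD stood about equally above cKO-HFD and WT-CT, and its genotype ratios were -0.43 on HFD and 0.49 on CT.

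*Ifi27*, which encodes a protein of mitochondria and the nuclear envelope, had 10.07 on cKO-HFD, 9.94 on WT-HFD, 10.38 on cKO-CT and 10.53 on WT-CT. It fell by 0.60 in WT-HFD over WT-CT and was lower on both HFD arrays than on both CT arrays. *Isg20*, an exonuclease, had 7.02 on cKO-HFD, 7.15 on WT-HFD, 7.42 on cKO-CT and 7.48 on WT-CT, also lower on both HFD arrays. *Bst2* (tetherin), which holds budding viruses at the cell surface, had 7.41 on cKO-HFD, 7.27 on WT-HFD, 7.47 on cKO-CT and 7.34 on WT-CT, a spread of 0.20. *Ifi35*, a binding partner of NMI, and *Xaf1*, an antagonist of the apoptosis inhibitor XIAP, had ratios of 0.28 and 0.25 in cKO-CT over WT-CT and between -0.13 and 0.23 in the other comparisons. *Mx1* and *Mx2*, dynamin-like GTPases that are defective in most laboratory strains, were under the background throughout. *Isg15*, the ubiquitin-like modifier that USP18 removes, had no probe set of its own. A probe set that names it together with the predicted gene *Gm9706* was under the background on each array, with 5.09 on cKO-HFD, 4.77 on WT-HFD, 4.71 on cKO-CT and 4.92 on WT-CT, and its small differences are not resolved. *Ifi44* had no named probe set here.

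**Figure D4:**
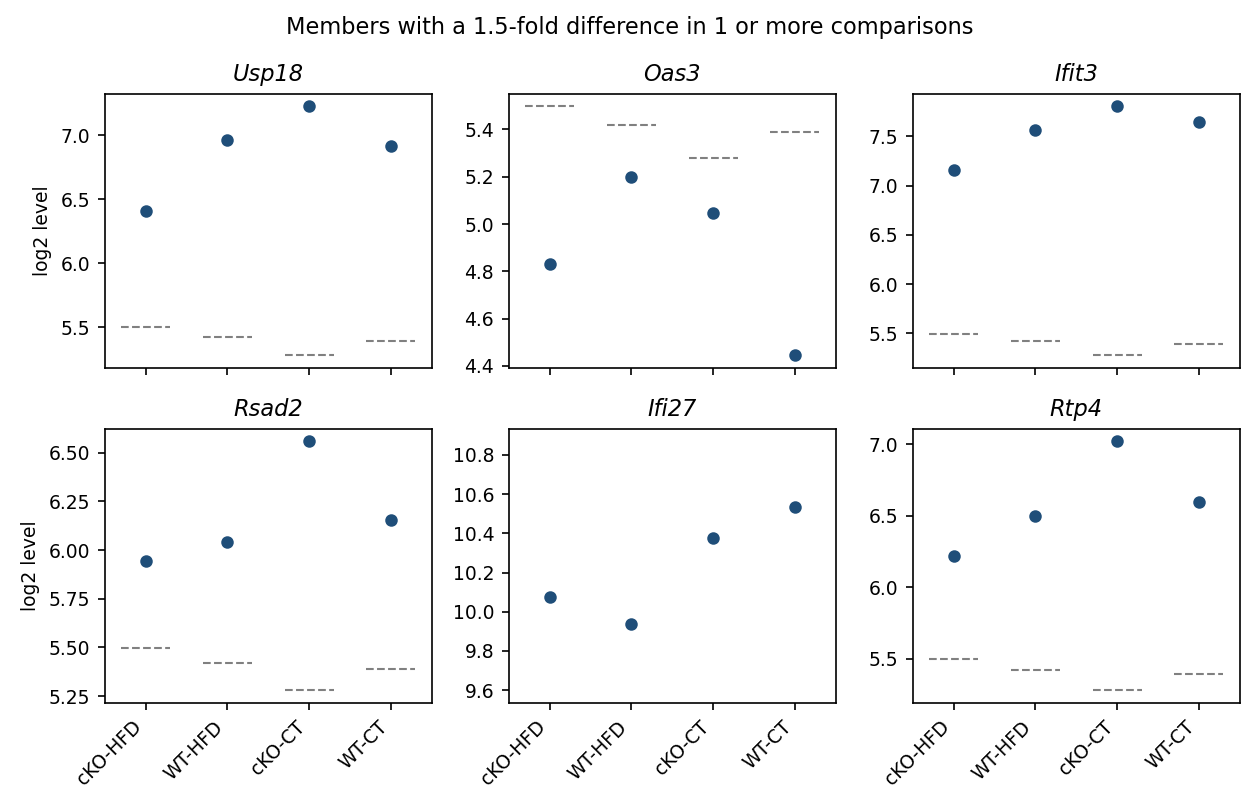
Log2 level (vertical axis) of the 6 members past 1.5-fold in any comparison on the cKO-HFD, WT-HFD, cKO-CT and WT-CT arrays, 1 point per array, with the *Olfr* background level of each array dashed (it lies below the axis for *Ifi27*). *Usp18*, *Rtp4*, *Ifit3* and *Rsad2* are highest on cKO-CT and lowest on cKO-HFD, and *Oas3* is under the dashed line on every array.

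The remaining groups stayed within 1.5-fold. *Parp9* and *Parp14*, ADP-ribosyltransferase family genes linked to interferon signalling, had ratios of 0.18 and 0.32 in cKO-CT over WT-CT, and *Parp9* had the highest ratio of any member in cKO-HFD over WT-HFD (0.26). The interferon-inducible GTPases attack vacuoles that shelter parasites and bacteria and respond above all to interferon gamma. *Irgm1* had a log2 level of 6.19 on cKO-HFD, 6.54 on WT-HFD, 6.51 on cKO-CT and 6.10 on WT-CT, with WT-HFD and cKO-CT above the other pair. *Iigp1* had 5.50 on cKO-HFD, 5.88 on WT-HFD, 6.0 on cKO-CT and 5.76 on WT-CT, under the background on cKO-HFD. *Gbp3* had 6.85 on cKO-HFD, 7.05 on WT-HFD, 7.06 on cKO-CT and 7.12 on WT-CT, and all 3 had ratios below 0 in cKO-HFD over WT-HFD, with a median of -0.34. *Gbp2*, *Igtp* and *Irgm2* were not measured alone. The probe set of *Gbp2* with its near copy *Gbp2b* had 8.05 on cKO-HFD, 8.14 on WT-HFD, 8.14 on cKO-CT and 7.83 on WT-CT, and WT-CT was the lowest. The probe set that *Igtp* and *Irgm2* share had 6.72 on cKO-HFD, 6.98 on WT-HFD, 7.04 on cKO-CT and 6.92 on WT-CT, with cKO-HFD lowest. *Psmb8* and *Psmb9*, subunits of the immunoproteasome, and *Tap1*, which carries peptides to MHC class I, had ratios of 0.14, -0.15 and 0.30 in cKO-CT over WT-CT. In cKO-HFD over WT-HFD they were 0.027, -0.021 and 0.032.

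Members with and without the ISRE core in their window had medians of the same sign. The median over the 12 measured members with it was 0.30 in cKO-CT over WT-CT and -0.29 in cKO-HFD over cKO-CT. For the 16 without it the medians were 0.22 and -0.24. For the GAS core, the 9 measured members with it had medians of 0.17 in cKO-CT over WT-CT, -0.18 in cKO-HFD over cKO-CT and -0.0058 in WT-HFD over WT-CT, and the 19 without it 0.30, -0.30 and 0.11. None of these differences was tested.

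Other genes of the pathway showed where the signal could be received and read. The type I receptor genes had log2 levels of 7.45 on cKO-HFD, 7.32 on WT-HFD, 7.54 on cKO-CT and 7.48 on WT-CT for *Ifnar1*. *Ifnar2* had 9.78 on cKO-HFD, 9.54 on WT-HFD, 9.84 on cKO-CT and 9.64 on WT-CT. The interferon gamma receptor genes were also well above the background, with 10.12 on cKO-HFD, 10.23 on WT-HFD, 10.03 on cKO-CT and 9.79 on WT-CT for *Ifngr1*. *Ifngr2* had 8.94 on cKO-HFD, 8.91 on WT-HFD, 9.02 on cKO-CT and 8.64 on WT-CT. None of the 10 measured receptor and kinase genes passed 1.5-fold in any comparison. Their medians were 0.22 for cKO over WT on CT, -0.027 for cKO over WT on HFD, 0.18 for HFD over CT in WT and -0.071 for HFD over CT in cKO. *Tyk2*, the kinase on IFNAR1, had the highest ratio in cKO-CT over WT-CT among them (0.45). Of 15 interferon ligand genes, 4 were above the background on at least 1 array. *Ifna14* was called lower in cKO-CT over WT-CT (-0.59, and -0.55 after loess, short of 1.5-fold), while *Ifna13* was called higher in cKO-HFD over cKO-CT (0.73) from levels under the background. The ligand medians, -0.14 for cKO over WT on CT, 0.076 for cKO over WT on HFD, -0.12 for HFD over CT in WT and 0.14 for HFD over CT in cKO, had the opposite sign to those of the ISGs, and most came from genes under the background.

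Of a list of 7 other genes named for interferon regulatory factors, 0 passed 1.5-fold. The list includes *Irf2bp1* and *Irf2bp2*, which encode proteins that bind IRF2 and are not such factors themselves. *Irf2*, which competes with *Irf1* product at its sites, had 7.78 on cKO-HFD, 8.05 on WT-HFD, 8.24 on cKO-CT and 7.69 on WT-CT, highest on cKO-CT, and *Irf3*, the factor that sensors activate first, had 7.13 on cKO-HFD, 7.24 on WT-HFD, 7.33 on cKO-CT and 7.11 on WT-CT. The medians of this list were 0.16 for cKO over WT on CT, -0.19 for cKO over WT on HFD, 0.20 for HFD over CT in WT and -0.21 for HFD over CT in cKO. Among 13 genes that lead to interferon production, *Sting1*, the adaptor of cytosolic DNA sensing, had 7.15 on cKO-HFD, 6.83 on WT-HFD, 7.38 on cKO-CT and 6.57 on WT-CT. It was called higher in cKO-CT over WT-CT (0.80). *Tlr8*, an endosomal RNA sensor of myeloid cells, had 5.26 on cKO-HFD, 6.06 on WT-HFD, 5.52 on cKO-CT and 5.15 on WT-CT. It was called higher in WT-HFD over WT-CT and lower in cKO-HFD over WT-HFD. On WT-CT and cKO-HFD it was under the background, so the sizes of these ratios are not resolved. The medians of these 13 genes were 0.18 for cKO over WT on CT, -0.039 for cKO over WT on HFD, 0.11 for HFD over CT in WT and -0.22 for HFD over CT in cKO. Of 8 negative regulators, 0 passed 1.5-fold, with medians of 0.052 for cKO over WT on CT, -0.018 for cKO over WT on HFD, 0.014 for HFD over CT in WT and 0.0045 for HFD over CT in cKO.

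Over all measured genes, a wider list of 65 other ISGs leaned as the members did but less. In 3 of the 4 comparisons the lean was not kept when the arrays were centred on the bright genes. Their medians were 0.13 for cKO over WT on CT, -0.060 for cKO over WT on HFD, 0.038 for HFD over CT in WT and -0.087 for HFD over CT in cKO. Of the 65, 47 were above the background on at least 1 array, against 36 of the 39 members. Over those 47 genes the medians were 0.19 for cKO over WT on CT and -0.070 on HFD. For HFD over CT they were 0.12 in WT and -0.12 in cKO. The 36 members had 0.24, -0.094, 0.062 and -0.27 in the same order, so in WT-HFD over WT-CT the wider list leaned more. In cKO-CT over WT-CT, 47 of the 65 had ratios above 0. The share was 49.2% of all genes, 57.9% of those above the background and 69.6% of the bright genes. Called higher were 2, *Ifi27l2a* and *Ly6e*, beside 1.64% of all genes. In cKO-HFD over cKO-CT, 46 had ratios below 0. The share was 46.9% of all genes, 57.0% of those above the background and 65.2% of the bright genes. Called lower was 1, *Trim12a* (-0.67), beside 2.17% of all genes. Centred on the bright genes, 33 of 65 were above 0 and 30 of 65 below 0 in these comparisons, with medians of 0.00028 and 0.016. In WT-HFD over WT-CT 32 of 65 were then above 0, with a median of -0.0099, while in cKO-HFD over WT-HFD the median was -0.042. With this centring *Ly6e*, *Samd9l* and *Trim12a* were within 1.5-fold. *Ifi27l2a*, a relative of *Ifi27*, had 11.81 on cKO-HFD, 11.95 on WT-HFD, 11.24 on cKO-CT and 10.41 on WT-CT, and its ratio of 1.54 in WT-HFD over WT-CT was opposite in sign to that of *Ifi27*. *Samd9l*, an antiviral factor, was the other gene called higher in WT-HFD (0.61), and *Trim12a* had 5.88 on cKO-HFD, 5.95 on WT-HFD, 6.55 on cKO-CT and 6.06 on WT-CT. *Ly6e*, a surface protein that hinders viral entry, had 11.60 on cKO-HFD, 11.48 on WT-HFD, 11.67 on cKO-CT and 11.07 on WT-CT.

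**Figure D5:**
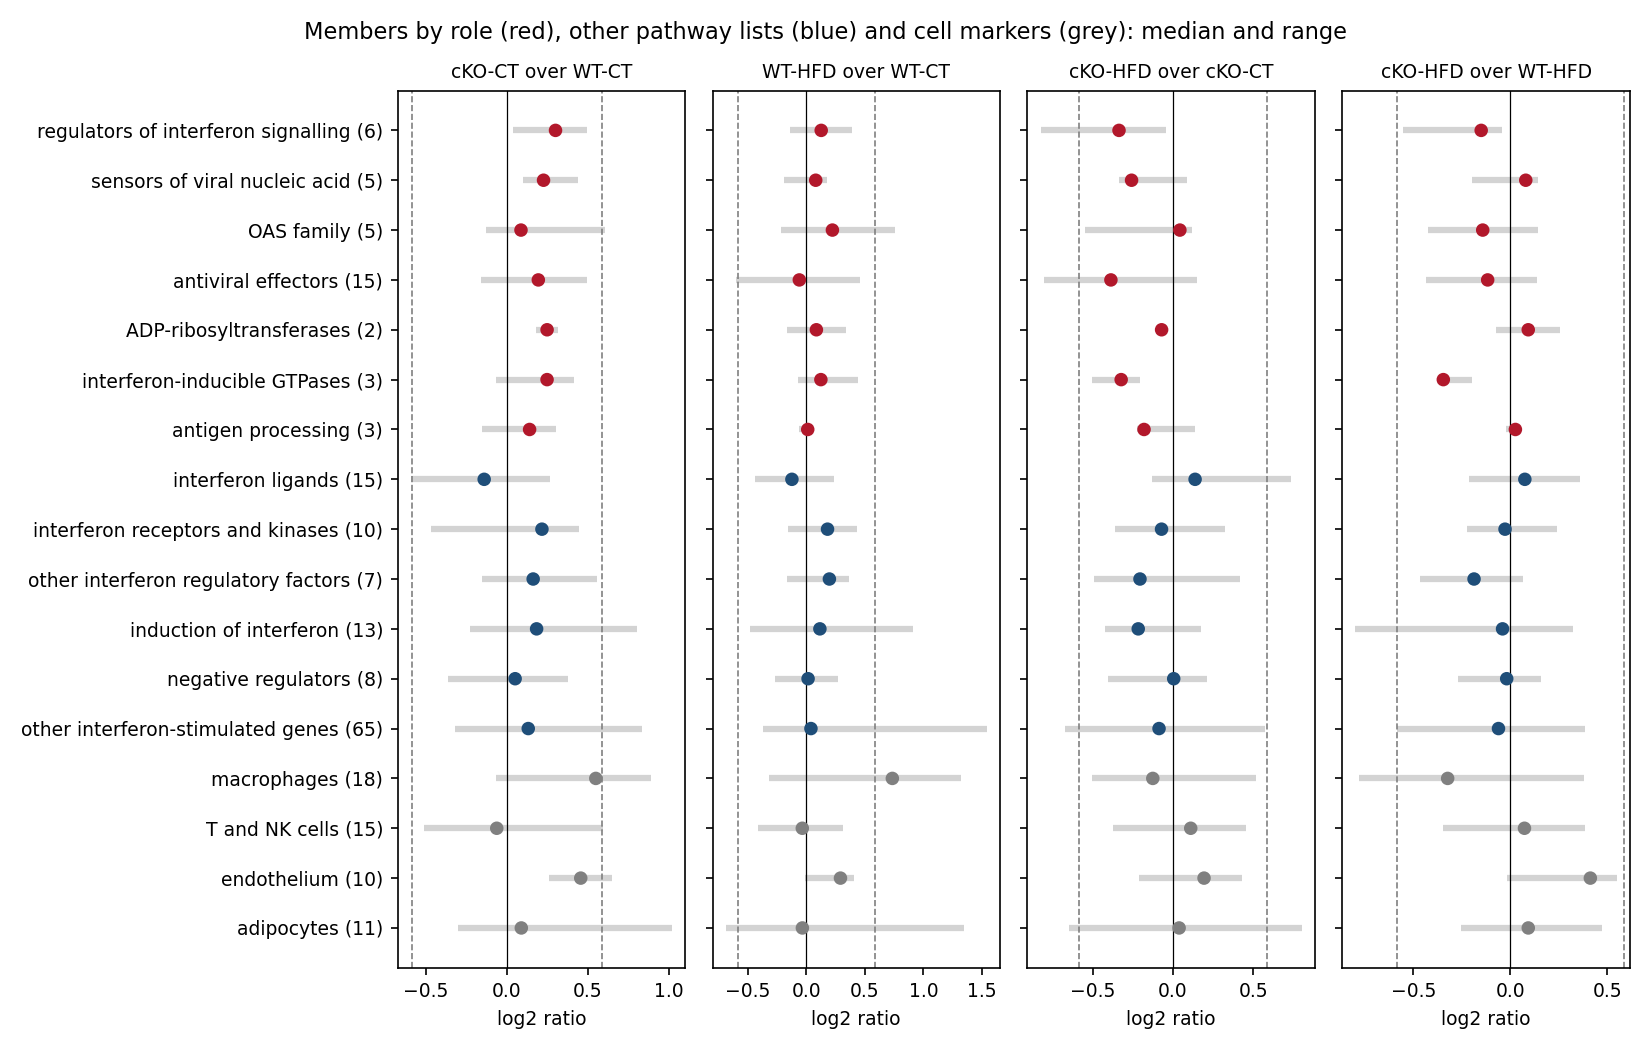
Median (points) and lowest to highest value (bars) of the log2 ratio (horizontal axis) in the 4 comparisons for the members by role (red), other interferon pathway lists (blue) and cell markers (grey), with the number of measured genes in parentheses, 1.5-fold dashed and a scale of its own for each panel. The markers of skeletal muscle, pancreatic acinar cells, B cells, neutrophils and plasmacytoid dendritic cells are not drawn. Macrophage markers have their highest median, 0.73, in WT-HFD over WT-CT, where the medians of the member groups lie between -0.061 and 0.22.

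Immune and vascular genes also differed between the arrays, and in bulk tissue fewer cells of a type and less RNA per cell cannot be told apart. Of 18 macrophage markers, 7 were called higher in cKO-CT over WT-CT (beside 1.64% of all genes) and 11 in WT-HFD over WT-CT (beside 3.16%). In cKO-HFD over WT-HFD 4 were called lower, beside 2.11%. None was called in cKO-HFD over cKO-CT, beside 1.82% of all genes higher and 2.17% lower. After loess 3 were higher in cKO-CT over WT-CT, and 2 when centred on the bright genes, and the count of 11 in WT-HFD over WT-CT was the same under both. Their medians were 0.55 for cKO over WT on CT, -0.32 for cKO over WT on HFD, 0.73 for HFD over CT in WT and -0.13 for HFD over CT in cKO. Their mean log2 level was 7.70 on cKO-HFD, 8.02 on WT-HFD, 7.80 on cKO-CT and 7.32 on WT-CT, and their summed linear level 5811 on cKO-HFD, 7846 on WT-HFD, 6506 on cKO-CT and 4480 on WT-CT. By mean log2 level the macrophage genes were highest on WT-HFD and the ISGs on cKO-CT, and both groups were lower on cKO-HFD than on WT-HFD. The medians of the macrophage markers and of the members had the same sign in all 4 comparisons. The HFD genotype ratio minus the CT genotype ratio had a median of -0.81 over the macrophage markers, against -0.27 over the members. *Cd68*, *Itgax* and *Lyz1* had log2 ratios of 1.32, 1.16 and 1.15 in WT-HFD over WT-CT. The part of macrophage RNA in the ISG values was not tested. Endothelial markers had medians of 0.46 for cKO over WT on CT and 0.41 on HFD. For HFD over CT they were 0.29 in WT and 0.19 in cKO. Called higher in cKO-CT over WT-CT was 1 of 10, *Robo4*, beside 1.64% of all genes (0.65, and 0.56 after loess, short of 1.5-fold).

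Lymphoid and granulocyte markers were mostly near the background. Of 15 T and NK cell markers 3 were above it on at least 1 array, of 7 B cell markers 1 and of 9 neutrophil markers 1. Their summed linear levels were 527 on cKO-HFD, 496 on WT-HFD, 485 on cKO-CT and 499 on WT-CT for T and NK cells. For B cells they were 177 on cKO-HFD, 170 on WT-HFD, 169 on cKO-CT and 195 on WT-CT, and for neutrophils 289 on cKO-HFD, 237 on WT-HFD, 229 on cKO-CT and 256 on WT-CT. Calls among them were *Nkg7* in cKO-CT over WT-CT (0.59), *Cd79a* in cKO-CT and WT-HFD over WT-CT (-0.75 and -0.62), and 4 neutrophil genes, led by *S100a9*, *S100a8* and *Ly6g* in cKO-HFD over WT-HFD (0.75, 0.61 and 0.60). *Cd79a* and these 4 genes were under the background on all 4 arrays. Plasmacytoid dendritic cells, a rich source of type I interferon, were covered by 8 markers, of which *Bst2* is also a member. Their defining marker *Siglech* had 5.37 on cKO-HFD, 5.55 on WT-HFD, 5.49 on cKO-CT and 5.37 on WT-CT, at or near the background. Their medians were 0.11 for cKO over WT on CT, 0.10 for cKO over WT on HFD, 0.13 for HFD over CT in WT and -0.014 for HFD over CT in cKO. *Cox6a2*, which skeletal muscle also expresses, was the marker called among them, with a ratio of -2.96 in cKO-HFD over WT-HFD. The 11 adipocyte markers had medians of 0.090 for cKO over WT on CT, 0.093 for cKO over WT on HFD, -0.035 for HFD over CT in WT and 0.038 for HFD over CT in cKO, and *Lep* and *Slc2a4* were called among them, with ratios of 1.35 and -0.69 in WT-HFD over WT-CT.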

How the data were processed

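SAT RNA, pooled from 4 to 5 mice per group per the labels, was hybridized to 4 Affymetrix MoGene 1.0 ST arrays, 1 for each of the cKO-HFD, WT-HFD, cKO-CT and WT-CT groups. The authors deposited log2 levels for each probe set, made by RMA with Affymetrix Expression Console per the processing notes and the RMA-Sketch procedure per the methods. RMA normalizes by quantiles, which forces the arrays to a like distribution and can hide a shift common to most genes. Detection P values were left aside. Of 35556 probe sets, 21789 had 1 gene name in the platform annotation, 1621 had several and 12146 had none. Levels were means over probe sets with 1 name (19938 genes, 999 with more than 1 probe set, and 1 such member). Log2 ratios were taken for the 4 comparisons and called at 1.5-fold, with no test, as each group is 1 array. The number of arrays limits the precision. Symbols were matched to the annotation directly or through RefSeq synonyms. The calling step was tested on simulated data.

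The members and lists were chosen with earlier results of these data known, so none of the counts is independent of them. Levels are given for members past 1.5-fold in any comparison and for the regulators. Levels of further members were added after their values were seen. From other lists, the genes past 1.5-fold with the largest ratios (up to 4, or 3 for cell markers), the receptors and *Irf3* are named. *Tyk2*, *Irf2*, *Adipoq* and *Siglech* were added after their values were seen. Promoters are those of the 6 members with an ISRE core and the largest ratios. Alternatives used, for each gene, its probe set of highest mean level, probe sets one by one, probe sets with several names included, genes above the *Olfr* background, bright genes (mean log2 level 7 or more), calls at 2-fold, arrays centred on the all-gene median, cyclic loess (span 0.7, 3 iterations) and, added after seeing the data, arrays centred on the bright genes. Python 3.11.15, numpy 2.4.6, pandas 2.3.3, matplotlib 3.10.9, R 4.3.3 and limma 3.58.1 were used.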

Additional observations from a re-analysis of the deposited data

How the results depend on the processing

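Each group is 1 array, so no array could be left out, and no paired analysis was possible because no group has a second sample. With no replicate spread, a median was taken as moved where an alternative changed it by more than 0.1 on the log2 scale. No median over all members and no called member changed sign under any alternative run. Medians of the smaller groups near 0 did: under loess those of the OAS family in cKO-HFD over cKO-CT (-0.0096) and of antigen processing in WT-HFD over WT-CT (-0.016), and under centring on the bright genes those of the OAS family in cKO-CT over WT-CT (-0.044), antigen processing in WT-HFD over WT-CT (-0.037) and the ADP-ribosyltransferases in cKO-HFD over cKO-CT (0.032). Cyclic loess, centring on all genes, the highest probe set, probe sets one by one and probe sets with several names left every median over all members within 0.1 and every count of called members within 1.5 times. Counts in other lists moved more: after loess, in cKO-CT over WT-CT, 3 macrophage markers and 1 gene of the wider ISG list were higher, against 7 and 2 as deposited, and in cKO-HFD over WT-HFD 1 neutrophil marker was higher, against 3. Among genes above the *Olfr* background, the count of higher members was 0 in cKO-CT over WT-CT and 0 in WT-HFD over WT-CT, as *Oas3* was the single call. Among the bright genes (mean log2 level 7 or more) these counts were 0 and 0, and 1 of 15 members, *Ifit3*, was lower in cKO-HFD over cKO-CT. At 2-fold no member was called: 0 were higher in cKO-CT and 0 in WT-HFD over WT-CT, 0 were lower in WT-HFD over WT-CT and 0 were lower in cKO-HFD over cKO-CT. Centring on the bright genes gave medians of 0.094 in cKO-CT over WT-CT and -0.15 in cKO-HFD over cKO-CT, with 0 members higher in the first and 2 members lower in the second, and a median difference of genotype ratios of -0.12. This follows from the setting itself, since those genes had a median of 0.11 in cKO-CT over WT-CT. With 1 array per group no value has an error, and ratios of genes near the *Olfr* background are not resolved.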
